A study of Mus musculus with 30 samples.

Results

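The comparison concerns 15 of the 30 small RNA libraries of the series, those of WT mouse cortex, which were made by 2 protocols. In 8 of them the RNA was treated with AlkB and T4PNK before library construction (PANDORA-seq), and in 7 no enzyme was used (traditional-seq). The libraries were chosen by their genotype and treatment labels, and each sequence of 15 to 42 nt was assigned by exact sense match to the GENCODE M21 transcripts of GRCm38. The question is which single RNAs the enzyme treatment raised or lowered in the same tissue.

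The series compared the cortex of 5XFAD mice, a transgenic model of Alzheimer's disease, with that of WT mice. All mice were 6 months old and on a C57BL/6J background, and no WT group carried a transgene or a drug treatment. Total RNA was cut from a gel at 15–50 nt for every library. The 7 traditional-seq libraries carry the same replicate numbers and the same codes in their file names as 7 of the PANDORA-seq libraries, but the labels do not say whether a shared code marks 1 mouse. The main tests leave the libraries unpaired, so p-values below measure the spread between libraries, and the values with the number as a block are given where they change a call.

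Most small RNA protocols ligate adapters to a 5′ phosphate and a 3′ hydroxyl, the ends that Dicer leaves on a miRNA. Fragments of tRNA, rRNA and mRNA often end in a cyclic or terminal 3′ phosphate or a 5′ hydroxyl, which T4PNK can repair. Methyl groups on the Watson-Crick face of a base, such as the 1-methyladenosine and 1-methylguanosine found at base 9 of many mitochondrial tRNAs, stop or misdirect reverse transcriptase, and AlkB removes some of them. In the cortex the abundant small RNAs without such marks include the let-7, miR-9 and miR-128 families of neurons.

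Some mature miRNA sequences are given first, from RefSeq (GRCm38.p6), with the seed (bases 2 to 8) in capitals. They are those of miRNAs with high levels or large falls, and of miR-1249-3p, whose hairpin rose. miR-128-3p is encoded in Mir128-1 at chr1:128202404-128202424 (plus strand), miR-9-5p at chr3:88215613-88215635 (plus strand), miR-148a-3p at chr6:51269829-51269850 (minus strand) and miR-127-3p at chr12:109592888-109592909 (plus strand). The 4 let-7 members share 1 seed.
miR-128-3p: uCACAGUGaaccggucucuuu
miR-9-5p: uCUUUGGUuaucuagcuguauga
miR-148a-3p: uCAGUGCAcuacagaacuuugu
miR-127-3p: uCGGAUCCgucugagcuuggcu
let-7c-5p: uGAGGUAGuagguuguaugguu
let-7f-5p: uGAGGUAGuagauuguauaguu
let-7i-5p: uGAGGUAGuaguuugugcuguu
let-7g-5p: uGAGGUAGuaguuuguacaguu
miR-1249-3p: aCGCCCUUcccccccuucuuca

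The most frequent reads of the RNAs on which the comparison turns are given next, as sequenced DNA letters. Capitals mark the 3′ bases that only the longer read of a pair has, or base 9 of a mitochondrial tRNA. In the miRNA pairs shown the leading PANDORA-seq read was 1 base shorter than the leading traditional-seq read, whereas Mir128-2 and Mir486 led with the same 22-nt read in both protocols and the leading Mir122 read was longer in PANDORA-seq (22 nt against 21 nt). In the mitochondrial tRNA pairs shown it was the longer of the pair. In mt-Ty, mt-Tl2, mt-Tp and mt-Tw, which are not shown, it was the shorter one from the same part of the molecule.
Mir148a, PANDORA-seq: tcagtgcactacagaactttg
Mir148a, traditional-seq: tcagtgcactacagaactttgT
Mirlet7i, PANDORA-seq: tgaggtagtagtttgtgctgt
Mirlet7i, traditional-seq: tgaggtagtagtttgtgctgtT
mt-Ts2, PANDORA-seq: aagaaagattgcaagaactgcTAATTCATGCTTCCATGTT
mt-Ts2, traditional-seq: aagaaagattgcaagaactgc
mt-Tk, PANDORA-seq: cactatgaAgctaagagcgttaaccttt
mt-Tk, traditional-seq: gttaaagttagagacctt
mt-Tv, PANDORA-seq: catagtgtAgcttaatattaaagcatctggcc
mt-Tv, traditional-seq: atgaccaatgaacact
mt-Tr, PANDORA-seq: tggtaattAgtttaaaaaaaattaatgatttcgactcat
mt-Tr, traditional-seq: gatttcgactcattagattatg

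The rRNA, snoRNA and Y RNA reads below stand for windows and genes described in the text. The 16S reads come from windows that moved in opposite directions, and the snoRNA reads show a rise (Snord14d, Scarna10) or a fall (Gm24452, Snora30, Snord85).
16S window 751–800, PANDORA-seq: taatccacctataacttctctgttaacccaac
16S window 951–1000, traditional-seq: agggactagcatgaacggct
5S rRNA, PANDORA-seq: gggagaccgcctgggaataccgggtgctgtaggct
Snord14d, PANDORA-seq: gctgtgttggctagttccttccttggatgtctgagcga
Scarna10, PANDORA-seq: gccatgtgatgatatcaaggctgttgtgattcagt
Gm24452, traditional-seq: tgcaatgatgtcatcttactactgaaa
Snora30, traditional-seq: cagctgttactcaagggaac
Snord85, traditional-seq: ggtcgatgatgagagctttgttctgagC
Rny1, traditional-seq: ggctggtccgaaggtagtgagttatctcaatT

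Depth and background differed between the protocols. The PANDORA-seq libraries held 48201246 to 88155113 reads of 15 to 42 nt and the traditional-seq libraries 10081061 to 14505010. Between 64.8% and 77.5% of PANDORA-seq reads matched no annotated transcript, against 41.8% to 53.0% of traditional-seq reads. Nuclear tRNAs and 28S rRNA are not among the annotated transcripts used and were not analysed here. Levels are given as RPM, the read count scaled to a common total of all reads of 15 to 42 nt, unmatched reads included. Neuron mRNAs (6 of 6 markers) summed to 339–1994 RPM in PANDORA-seq and 85.7–294 RPM in traditional-seq. Liver mRNAs were found beside them, at 208–840.5 RPM in PANDORA-seq and 2.11–37.9 RPM in traditional-seq, and in PANDORA-seq replicate 8 Alb of liver (365 RPM) was above Snap25 of neurons (77.9 RPM).

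Of 14369 RNAs tested with edgeR's quasi-likelihood test, 12908 (89.8%) were higher in PANDORA-seq and 442 (3.08%) lower, at an adjusted p below 0.05 and a change of more than 2-fold. The median log2 fold change was 2.26. This split depends on the scale, because the same RNAs gave 1390 higher and 1272 lower under TMM scaling, 1103 and 1404 under DESeq2 size factors, and 13699 and 327 relative to matched reads. TMM moved the median by -2.12 and DESeq2 size factors by -2.22. An RNA that rose by less than the median is therefore lower relative to the median RNA, and each class is read against that median.

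By class, miRNA hairpins stood apart. They made up 1.81% to 4.55% of PANDORA-seq reads (mean 2.95% ± 0.899, SD, n = 8) and 35.9% to 49.8% of traditional-seq reads (42.6% ± 5.4, n = 7). Every traditional-seq library was above every PANDORA-seq library (exact permutation test, two-sided, p = 0.000155, the smallest that 8 against 7 libraries allow, adjusted p = 0.000342). Mitochondrial tRNA reads also made up a smaller share in PANDORA-seq, with 1.96% ± 1.15 against 5.33% ± 2.03 (exact permutation p = 0.00109, adjusted p = 0.00133), although the ranges overlapped. This call was lost over matched reads (-3.15 percentage points) and with reads of 20 to 42 nt alone (-1.05 against -3.37 points).

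The other large classes went the other way. Nuclear rRNA, here 5S and 5.8S genes, took 2.06% ± 0.68 of PANDORA-seq reads and 0.068% ± 0.0433 of traditional-seq reads. For mRNA the shares were 13.3% ± 4.22 and 2.5% ± 0.866, for lncRNA 3.11% ± 0.516 and 0.813% ± 0.542, and for snRNA 0.776% ± 0.18 and 0.0725% ± 0.0292. The groups did not overlap for any of these classes. Tested mRNA genes with at least 50% of their reads in 1 window of 50 nt held 2.31% of all PANDORA-seq reads and 0.199% of traditional-seq reads. These reads may come from other RNAs. Most lncRNA reads came from Gm42418, which holds the 18S rRNA sequence (78.1% ± 7.69 in PANDORA-seq and 74.4% ± 17.2 in traditional-seq), and without it, an alternative added after the values were seen, the lncRNA share was 0.65% ± 0.158 against 0.15% ± 0.05, again without overlap (exact permutation, adjusted p = 0.000342). The remainder still holds Gm26917, whose reads may also come from other RNAs of like sequence. SnoRNA rose from 0.389% ± 0.143 to 0.843% ± 0.235 and the other small RNAs from 1.12% ± 0.58 to 2.44% ± 0.295, also without overlap, and all 6 had an adjusted p of at most 0.000641 in the exact permutation test. The ratios between protocols closest to 1 were those of mitochondrial rRNA (0.496% ± 0.27 against 0.265% ± 0.0801) and mitochondrial mRNA (0.28% ± 0.0785 against 0.516% ± 0.34), each with overlapping groups and an adjusted p of 0.0325 in the same exact test. With the 7 same-numbered pairs as a block neither passed (0.236 and -0.246 percentage points, exact sign flips, adjusted p = 0.078 for both). Mitochondrial rRNA also lost its call without traditional-seq replicate 1, 2, 3, 4, 6 or 7, and mitochondrial mRNA without PANDORA-seq replicate 3, 4, 5, 6 or 7 or traditional-seq replicate 2, 5 or 6, with the difference going from -0.236 to -0.119 points without replicate 5.

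**Figure D1:**
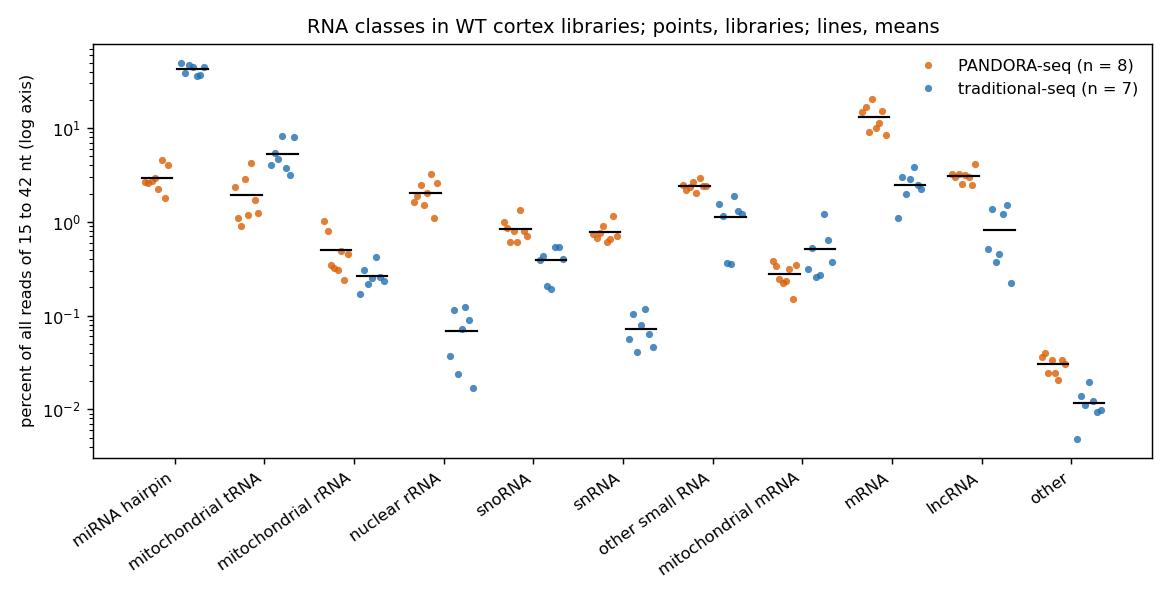
Percent of all reads of 15 to 42 nt (log axis) by RNA class in 8 PANDORA-seq and 7 traditional-seq libraries of WT cortex, where each point is 1 library and each line a mean. The miRNA points lie at 1.81% to 4.55% in PANDORA-seq and at 35.9% to 49.8% in traditional-seq, and the mRNA points at 8.46% to 20.4% and 1.1% to 3.85%.

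Reads were also longer in PANDORA-seq in most classes. Over libraries, the median mitochondrial tRNA read was 40 nt against 20 nt, and reads of 30 to 42 nt made up 94.8% against 3.63%. A 40-nt read of mt-Ts2 (mean 15660 RPM) made up most of this class in PANDORA-seq, so its lengths are largely those of that read. The median mRNA read was 35 nt against 22 nt, and the median snoRNA read 37 nt against 28 nt. Only for miRNA hairpins was the median shorter (21 nt against 22 nt), while for the other small RNAs, which are mostly Y RNA, it was 32 nt in both.

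Of 426 miRNA hairpins tested, 310 were lower in PANDORA-seq, 63 were higher and 53 were neither, with a median log2 fold change of -2.65 against 2.26 over all RNAs. Relative to matched reads 256 were still lower and 80 higher, and under TMM 351 and 16. The fall was unequal between hairpins.

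Mir148a, a miRNA of liver and immune cells that is also found in brain, was among the highest hairpins of traditional-seq, with 20488 to 68936 RPM (median 40680), but it had 30.7 to 327 RPM (median 65.4) in PANDORA-seq. No library of one protocol reached the range of the other (log2 fold change -8.85 ± 0.52 SE, adjusted p = 3.4e-61). A single 22-nt sequence held 99.7% of its traditional-seq reads, and the same sequence without its last base held 95.4% of its PANDORA-seq reads. The 22-nt read itself fell from a mean of 43540 RPM to 2.34 RPM.

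Mir467a-1, which stands for 12 near-identical hairpins of the Sfmbt2 cluster, had 22.8 to 117 RPM in traditional-seq and at most 0.194 RPM in PANDORA-seq (-10.31 ± 0.59, adjusted p = 4.6e-64). Mir376c, of the imprinted Dlk1-Dio3 cluster, had 1.83 to 15.6 RPM against at most 0.0502 RPM (-8.67 ± 0.62, adjusted p = 5.3e-42). Neither hairpin overlapped between protocols. Both were near the detection limit in PANDORA-seq, with 28 and 7 reads over all 8 libraries.

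The hairpins of highest level fell by different amounts. Mir128-1, a neuronal hairpin, had 46661 to 227367 RPM in traditional-seq and 1583 to 4846 RPM in PANDORA-seq (-5.08 ± 0.44, adjusted p = 1.1e-28). Mir9-1, which stands for the 3 miR-9 hairpins of neural progenitors and neurons, had 21009 to 52073 RPM against 611 to 3211 RPM (-4.16 ± 0.42, adjusted p = 8.3e-21). Neither overlapped. By contrast Mir127, of the Dlk1-Dio3 cluster, had 1628 to 5901 RPM in PANDORA-seq and 2671 to 7567 RPM in traditional-seq (-0.91 ± 0.39), and Mirlet7c-2 had 912 to 3859 RPM and 2785 to 5123 RPM (-0.95 ± 0.39). Both ranges overlapped and neither passed the 2-fold threshold, so Mir127 and Mirlet7c-2 were among the 3 highest hairpins of PANDORA-seq while Mir148a, Mir128-1 and Mir9-1 were the 3 highest of traditional-seq.

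The let-7 and miR-98 hairpins, which share 1 seed and include tumour-suppressing and neuronal miRNAs, fell in 7 of 9 cases (median -1.65), and with matched reads as the library size in 4 of 9. Under TMM all 9 were lower (median -3.64). Mirlet7f-2 had 15121 to 45388 RPM in traditional-seq and 579 to 1769 RPM in PANDORA-seq (-4.60 ± 0.43). Mirlet7i changed by -4.03 ± 0.42 and Mirlet7g by -4.07 ± 0.42, and none of these 3 overlapped. Mir98 (-2.66 ± 0.41), Mirlet7d (-1.65 ± 0.40), Mirlet7a-1 (-1.50 ± 0.39) and Mirlet7e (-1.11 ± 0.39) also fell, and Mirlet7b (-0.75 ± 0.39) did not pass. Members with the same seed thus differed in how far they fell. Near-identical members share reads that were given to the member with most reads of its own, so single let-7 values are uncertain, and Mir128-2 (-8.37 ± 0.51) is counted mainly through a 22-nt read (97.9% of its traditional-seq and 78.5% of its PANDORA-seq reads) that differs from that of Mir128-1 in its last base.

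All 7 neuronal hairpins tested were lower (median -4.16), including Mir124a-1 of mature neurons, which had 75.2 to 184 RPM against 136 to 888 RPM (-1.91 ± 0.40, adjusted p = 4e-06) with overlapping groups. Relative to matched reads Mir124a-1 no longer passed (-0.93), which left 6 of 7 lower. The 3 oligodendrocyte hairpins were lower (median -3.0), with Mir219a-2 at -2.84 ± 0.41 and Mir338 at -3.29 ± 0.43. The 5 microglial and inflammatory hairpins were lower (median -4.05), with Mir146b at -5.09 ± 0.45, Mir146 at -3.24 ± 0.42 and Mir142 at -4.05 ± 0.45. All these calls passed in the direction in which 72.8% of hairpins were called.

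The 3 vascular hairpins were lower too (median -4.95). Mir126a, an endothelial miRNA, had 2260 to 8821 RPM in traditional-seq and 8.35 to 42.9 RPM in PANDORA-seq (-8.17 ± 0.51, adjusted p = 1.7e-53), with no overlap, and Mir143 of smooth muscle changed by -4.95 ± 0.45. Of the 3 erythroid hairpins, Mir451a (-4.25 ± 0.44) and Mir144 (-1.73 ± 0.43) fell. Mir486 had 88.0 to 320 RPM in PANDORA-seq and 49.4 to 144 RPM in traditional-seq (0.81 ± 0.40, adjusted p = 0.045), which did not pass the 2-fold threshold.

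Of the muscle and liver hairpins, Mir1a-1 (-8.55 ± 0.53), Mir206 (-3.53 ± 0.43) and Mir133a-2 (-3.97 ± 0.45), all muscle miRNAs, were lower. Mir122, the liver miRNA, had 56.7 to 272 RPM in PANDORA-seq and 25.7 to 314 RPM in traditional-seq (-0.043 ± 0.40, adjusted p = 0.92). Under TMM it was called lower (-1.72) and relative to matched reads higher (1.04). Its ranges almost coincided, unlike those of the other 3.

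The hairpins that rose were small in reads. Mir1249 had 5.74 to 31.6 RPM in PANDORA-seq, while 6 of 7 traditional-seq libraries had none and the other had 0.0924 RPM (9.99 ± 0.78, adjusted p = 3.9e-35). Of its PANDORA-seq reads 99.2% started at the 5′ end of miR-1249-3p, so they have the shape of a mature miRNA. Its hairpin is on chromosome 15. Gm26117 (7.91 ± 0.59, adjusted p = 6.5e-38) and Mir5100 (7.69 ± 0.73, adjusted p = 1.2e-23) lacked that shape. In Gm26117 a single 15-nt read held 98.3% of PANDORA-seq reads, and in Mir5100 only 11.4% of reads started at the mature 5′ end.

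**Figure D2:**
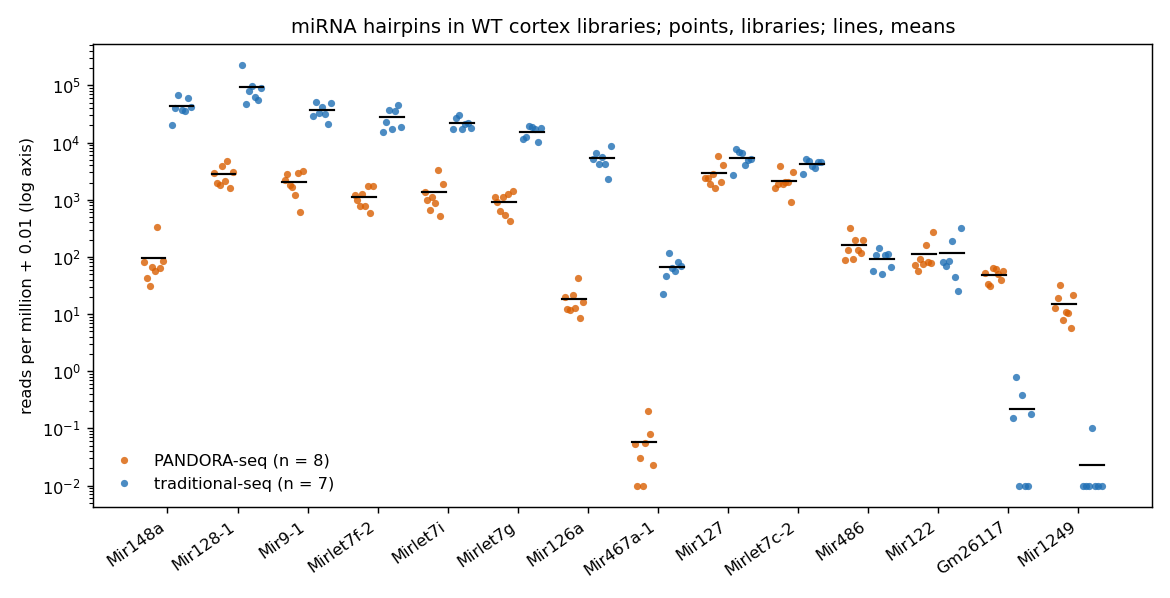
RPM plus 0.01 (log axis) of 14 miRNA hairpins in each WT library, with 8 PANDORA-seq and 7 traditional-seq points per hairpin and lines at the means. Mir148a to Mir467a-1 have all PANDORA-seq points below all traditional-seq points, Mir127 to Mir122 overlap, and Gm26117 and Mir1249 lie higher in PANDORA-seq.

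The 3′ ends of miRNA reads differed between the protocols. Among reads that started at a RefSeq mature 5′ end, those of the annotated length made up 17.6% to 24.5% in PANDORA-seq (20.2% ± 2.21) and 38.5% to 57.1% in traditional-seq (50.2% ± 6.31). Reads 1 base shorter made up 45.5% ± 1.26 against 17.1% ± 4.0, and reads 1 base longer 3.12% ± 0.286 against 20.8% ± 6.94. The protocols did not overlap in any of these (exact permutation p = 0.000155 for each, adjusted p = 0.000155 over 5 end positions). This comparison was chosen after the values were seen.

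The shift was spread over many miRNAs. Of 145 mature sequences with at least 50 reads in every WT library, 137 had a higher mean share of shortened reads in PANDORA-seq, and 124 (85.5%) had every PANDORA-seq library above every traditional-seq library. Hairpin reads of 20 to 24 nt made up 79.2% ± 2.69 in PANDORA-seq and 97.7% ± 0.345 in traditional-seq (exact permutation p = 0.000155). The most frequent length moved from 22 nt (53.7% in traditional-seq) to 21 nt (40.4% in PANDORA-seq). The 5XFAD libraries, which were not used to notice it, had 77% to 83.6% shortened reads in PANDORA-seq and 19.1% to 26.8% in traditional-seq. What shortened the reads was not tested.

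Mitochondrial tRNAs receive the bases CCA at their 3′ end after transcription, so reads that reach that end can be sorted by how much of CCA they carry. In 10 tRNAs with enough reads, the complete CCA was carried by a mean of 0.0422% to 3.81% of these reads in PANDORA-seq and 12.7% to 91.2% in traditional-seq. All 10 were lower and none overlapped (exact permutation, adjusted p at most 0.000333). In mt-Ty, the tyrosine tRNA, the complete CCA was on 0.109% ± 0.154 of PANDORA-seq end reads and 91.2% ± 6.12 of traditional-seq end reads, while CC ended 72.8% ± 6.71 and 7.72% ± 5.96. In mt-Tw, the tryptophan tRNA, the complete CCA was on 0.0422% ± 0.119 and 88.3% ± 1.81, and CC on 74.2% ± 4.36 and 10.5% ± 1.75. Single C was more frequent in PANDORA-seq in all 10 tRNAs, and without overlap in all but mt-Te (exact permutation, adjusted p at most 0.0241). In mt-Th, the histidine tRNA, it ended 66.4% ± 7.41 against 5.79% ± 3.72. CC was more frequent in PANDORA-seq in 7 of the 10 tRNAs and did not pass in mt-Th, mt-Tm or mt-Tp.

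**Figure D3:**
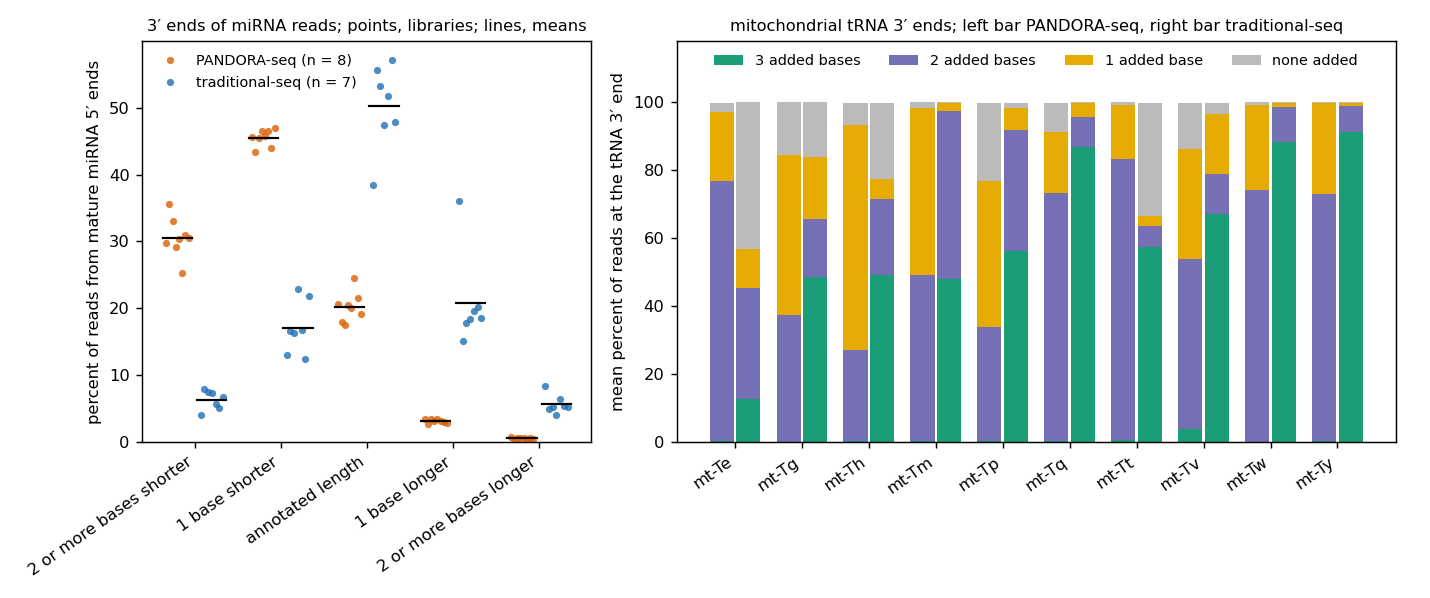
Left, percent of reads from mature miRNA 5′ ends by the position of their 3′ end in each WT library (points) with means (lines). Right, mean percent of reads at the 3′ end of 10 mitochondrial tRNAs that carry 3, 2, 1 or none of the added bases, with PANDORA-seq as the left bar of each pair. Reads 1 base shorter average 45.5% in PANDORA-seq and 17.1% in traditional-seq, and all 3 added bases are rare in every PANDORA-seq bar.

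All 22 mitochondrial tRNAs, the adaptors that read the codons of the mitochondrial genome, passed the filter. In the fit of whole genes 14 were lower in PANDORA-seq, 3 were higher and 5 were neither (median -1.55). Relative to matched reads 10 were lower and 4 higher, and under TMM 19 were lower and 1 higher (median -3.61). These fits count reads that match the encoded tRNA and leave out those with added 3′ bases. With these bases included 13 were lower and 4 higher.

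mt-Ts2, one of the serine tRNAs, held most of the class. It had 6960 to 37581 RPM (median 12532) in PANDORA-seq and 21114 to 70702 RPM (median 35807) in traditional-seq, with overlapping ranges (-1.31 ± 0.38, adjusted p = 0.00079). In both protocols over 99% of its reads covered base 9, and they mostly began at base 1, but they ended at different places. The 40-nt read shown above held 94.9% of its PANDORA-seq reads with a mean of 15660 RPM, against 6.54 RPM in traditional-seq. The 21-nt read that led traditional-seq had 15730 RPM there and 5.46 RPM in PANDORA-seq.

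To describe such shifts each tRNA was cut into 3 equal parts, and a read was placed by its middle base. A longer read from the same start can therefore count in a later part, so a part's value is not the coverage of its bases. Of 194 segments of tRNA and rRNA tested, 108 (55.7%) were higher in PANDORA-seq and 48 (24.7%) lower. Of the 65 tRNA parts 15 were higher and 38 lower, and 7 of 22 tRNAs had a part that rose and another that fell. In mt-Ts2 the 5′ part had a mean of 491 RPM against 40547 RPM (-6.37 ± 0.57, adjusted p = 2.6e-15) and the middle part 16010 RPM against 392 RPM (5.35 ± 0.60, adjusted p = 6e-12), neither with overlap.

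In mt-Tr, the arginine tRNA, the 5′ part had 0.541 to 8.06 RPM in PANDORA-seq and at most 0.0924 RPM in traditional-seq, where most libraries had none (8.11 ± 0.92, adjusted p = 6.6e-12), while the middle part fell from a mean of 1319 RPM to 20.6 RPM (-6.00 ± 0.56). As a whole mt-Tr had 8.67 to 57.9 RPM in PANDORA-seq and 901 to 1960 RPM in traditional-seq (-5.65 ± 0.46, adjusted p = 1.6e-31). In mt-Tv, the valine tRNA, the 5′ part rose (3.39 ± 0.51) and the 3′ part fell (-3.27 ± 0.48). mt-Tk, the lysine tRNA, had the same pattern (4.05 ± 0.52 and -2.90 ± 0.52). The 5′ parts of mt-Te, mt-Tg and mt-Tt rose as well (3.36 ± 0.50, 3.55 ± 0.50 and 1.81 ± 0.49), while their 3′ parts changed by -1.40 ± 0.46, 0.10 ± 0.47 and -2.46 ± 0.43. The 3′ part thus fell in mt-Tv, mt-Tk, mt-Te and mt-Tt, but the value of mt-Tg was near 0. These parts leave out reads with added 3′ bases. Reads with no added base were 2.65% of the 3′-end reads of mt-Te in PANDORA-seq and 43.2% in traditional-seq, 0.852% and 33.5% in mt-Tt, and 13.6% and 3.44% in mt-Tv. How far the left-out reads set the 3′-part values was not tested.

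Base 9 carries adenosine or guanosine in most mitochondrial tRNAs and is a known methylation site. The share of a tRNA's reads that covered base 9 was higher in PANDORA-seq in 14 of 21 tRNAs and lower in 1, by the exact permutation test with adjustment over the 21. Read length also differed between the protocols, which can change the coverage of any base. No other base was compared, so the count does not single out base 9. The 14 include mt-Ts2, with T at base 9 and means of 99.8% and 99.5%. For mt-Tv it was 15.4% to 78.4% in PANDORA-seq and 0.0627% to 0.691% in traditional-seq (adjusted p = 0.000999). For mt-Tk it was 70.9% to 98.9% (n = 8) and 8.33% to 17.8% (n = 6 libraries with at least 50 reads), with an exact permutation adjusted p of 0.000999. For mt-Tr it was 0.983% to 48.7% in PANDORA-seq, and no covering read was found in traditional-seq (adjusted p = 0.00297). None of these overlapped. The exception was mt-Tl1, a leucine tRNA with G at base 9, in which 7.87% to 22.8% of PANDORA-seq reads and 45.4% to 70.6% of traditional-seq reads covered the base.

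Reads of at least 20 nt that carried another base at base 9 were less frequent in PANDORA-seq for the G tRNAs that had enough of them. No tRNA with A at base 9 had enough reads over that base in both protocols, so those tRNAs were not tested. For mt-Ti, the isoleucine tRNA, the share was 2.28% to 10.3% in PANDORA-seq and 18.6% to 33.3% in traditional-seq (exact permutation, adjusted p = 0.00035), with G9A the leading substitution, counted from the 5′ end. For mt-Ty it was 17.8% ± 5.65 against 33.9% ± 3.57 and for mt-Tl1 7.13% ± 2.5 against 20.2% ± 5.05, with G9T leading in both and an adjusted p of 0.00035 in the same exact test. mt-Tc and mt-Th fell from 5.36% ± 1.83 to 2.68% ± 1.54 and from 14% ± 1.49 to 8.37% ± 3.76, with overlap. mt-Tq, the other G tRNA, did not pass (2.06% ± 0.243 against 2.4% ± 1.54, adjusted p = 0.63). The calls were not limited to G. In mt-Ts1, where base 9 is C, the share rose to 0.293% ± 0.0669 from 0.134% ± 0.0583 with overlap (exact permutation, adjusted p = 0.000839), and in mt-Ts2, where it is T, it fell to 0.316% ± 0.0179 from 0.424% ± 0.084 without overlap (exact permutation, adjusted p = 0.00035). In mt-Tm it did not pass (0.436% ± 0.145 against 0.323% ± 0.606).

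The remaining whole-tRNA values span a wide range. mt-Tp, the proline tRNA, rose most, with 98.1 to 366 RPM in PANDORA-seq and 8.0 to 32.1 RPM in traditional-seq and no overlap (3.30 ± 0.44, adjusted p = 2e-12), and this rise held under TMM (1.62). mt-Tk (1.54 ± 0.41) and mt-Tl1 (1.15 ± 0.40) also rose, with overlapping groups, but under TMM both turned (-0.52 and -0.66). mt-Tf, the phenylalanine tRNA, fell most, with 0.25 to 1.37 RPM against 18.1 to 54.8 RPM (-5.82 ± 0.48, adjusted p = 3.1e-31). After mt-Tr, whose value is given above, mt-Ty followed at -5.42 ± 0.46, with 9.75 to 119 RPM against 501 to 2894 RPM. Neither mt-Tf nor mt-Ty overlapped.

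Of the others, mt-Ta (-4.77 ± 0.45), mt-Tc (-4.55 ± 0.44), mt-Ti (-3.70 ± 0.43), mt-Tl2 (-2.95 ± 0.42), mt-Td (-2.80 ± 0.43), mt-Th (-2.76 ± 0.41), mt-Ts1 (-2.57 ± 0.41) and mt-Tv (-1.78 ± 0.40) fell without overlap, and mt-Tw (-1.18 ± 0.41) and mt-Tt (-1.03 ± 0.40) with overlap. With reads of 20 to 42 nt mt-Tt turned (0.34), and it lost its call without PANDORA-seq replicate 4, 5, 6 or 7 or traditional-seq replicate 2, 4 or 7 (-0.99 to -0.93). The 5 that passed in neither direction were mt-Tn (-0.81 ± 0.40), mt-Tg (-0.74 ± 0.39), mt-Te (-0.73 ± 0.39), mt-Tm (-0.58 ± 0.40) and mt-Tq (0.54 ± 0.40). Under TMM all 5 were called lower. With the added 3′ bases included mt-Te rose (1.09, adjusted p = 0.0067 in edgeR), mt-Tg (0.069) and mt-Tm (0.69) turned without passing, mt-Tt no longer passed (-0.32) and mt-Tw fell further (-5.54).

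**Figure D4:**
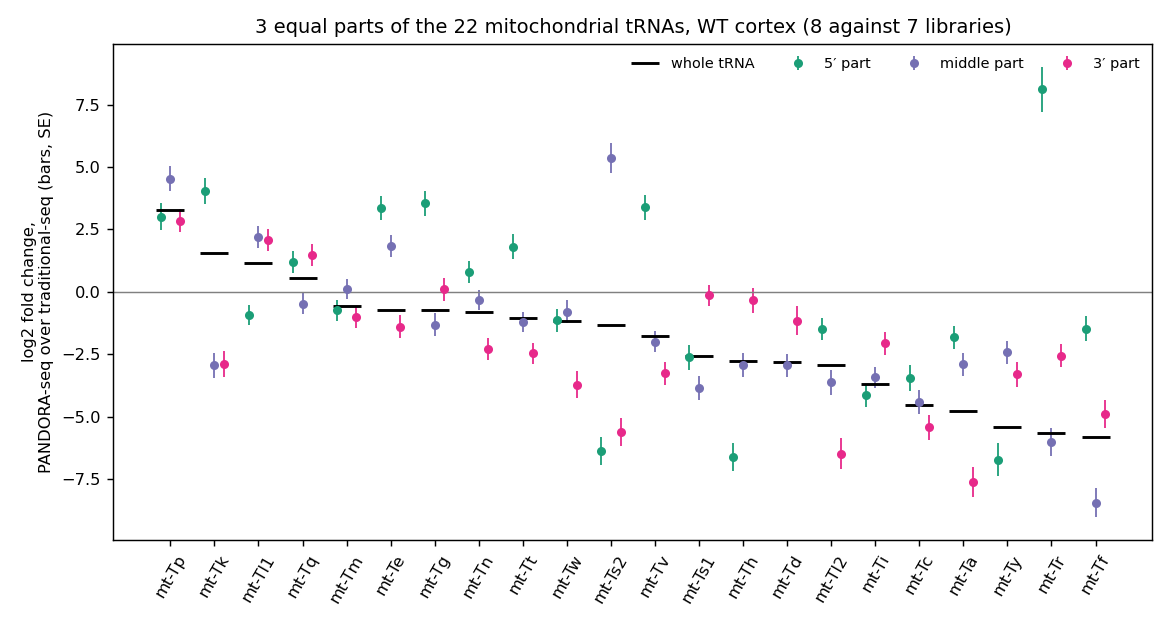
Log2 fold change (PANDORA-seq over traditional-seq, bars are SE) of the 5′, middle and 3′ part of each of the 22 mitochondrial tRNAs, with a black line at the value of the whole tRNA. Each read counts in the part that holds its middle base. In mt-Ts2 the middle part is at 5.35 and the 5′ part at -6.37, and in mt-Tr the 5′ part is at 8.11 and the middle part at -6.00.

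The mitochondrial rRNAs are the RNA core of the mitochondrial ribosome, and 1 of 2 was called higher. mt-Rnr1 (12S) had 678 to 3738 RPM in PANDORA-seq and 207 to 749 RPM in traditional-seq (1.93 ± 0.41, adjusted p = 4.8e-06), and mt-Rnr2 (16S) had 1744 to 6405 RPM and 1443 to 3466 RPM (0.63 ± 0.39, adjusted p = 0.11). Both ranges overlapped, mt-Rnr2 passed in neither direction, and under TMM the signs turned (-0.13 and -1.36).

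Along 12S, 14 of 19 windows of 50 nt rose on the main scale and none fell, beside 55.7% and 24.7% of all 194 segments. No window of 12S was below -0.87. In all rRNAs a read was placed in the window that held its middle base, so a window's value is not the coverage of its bases. The largest rises were at bases 201–250 (3.40 ± 0.48), 101–150 (3.29 ± 0.48) and 51–100 (3.28 ± 0.48). The windows at 1–50 (0.20 ± 0.46), 701–750 (-0.63 ± 0.43) and 901–950 (-0.87 ± 0.40) were the lowest and passed in neither direction.

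Along 16S, 20 of 32 windows rose on the main scale and 3 fell, beside 55.7% and 24.7% of all segments. Bases 751–800 had 211 to 429 RPM in PANDORA-seq and 2.9 to 12.9 RPM in traditional-seq (5.35 ± 0.53, adjusted p = 7.2e-14), bases 551–600 rose by 5.98 ± 0.53 and bases 651–700 by 3.88 ± 0.46. In contrast bases 951–1000 had 46.8 to 291 RPM against 148 to 1545 RPM (-2.26 ± 0.52, adjusted p = 7.8e-05), bases 501–550 changed by -2.88 ± 0.43 and bases 401–450 by -1.48 ± 0.40. The window at 551–600 thus rose and its neighbour at 501–550 fell. The leading traditional-seq read of the window at 951–1000, 20 nt long, had a mean of 162 RPM there and 0.146 RPM in PANDORA-seq.

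GENCODE holds the nuclear 18S rRNA sequence as the lncRNA gene Gm42418, on chromosome 17. It had 16538 to 37340 RPM in PANDORA-seq and 840 to 13747 RPM in traditional-seq, with no overlap (1.89 ± 0.40, adjusted p = 4.5e-06), and 0.086 under TMM. Of its 36 windows 30 rose on the main scale and 2 fell, beside 55.7% and 24.7% of all segments. The largest rises lay toward the 3′ end, at bases 1651–1700 (7.49 ± 0.67), 1351–1400 (6.51 ± 0.59) and 1601–1650 (5.69 ± 0.55). The leading PANDORA-seq reads of the windows at 1601–1650 and 1651–1700 both began at base 1642, so their rises are not separate. Bases 451–500 had 1.87 to 5.49 RPM against 5.9 to 95 RPM (-3.92 ± 0.47, adjusted p = 4.6e-11). The window at 351–400 was close to equal (0.22 ± 0.49, adjusted p = 0.69).

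**Figure D5:**
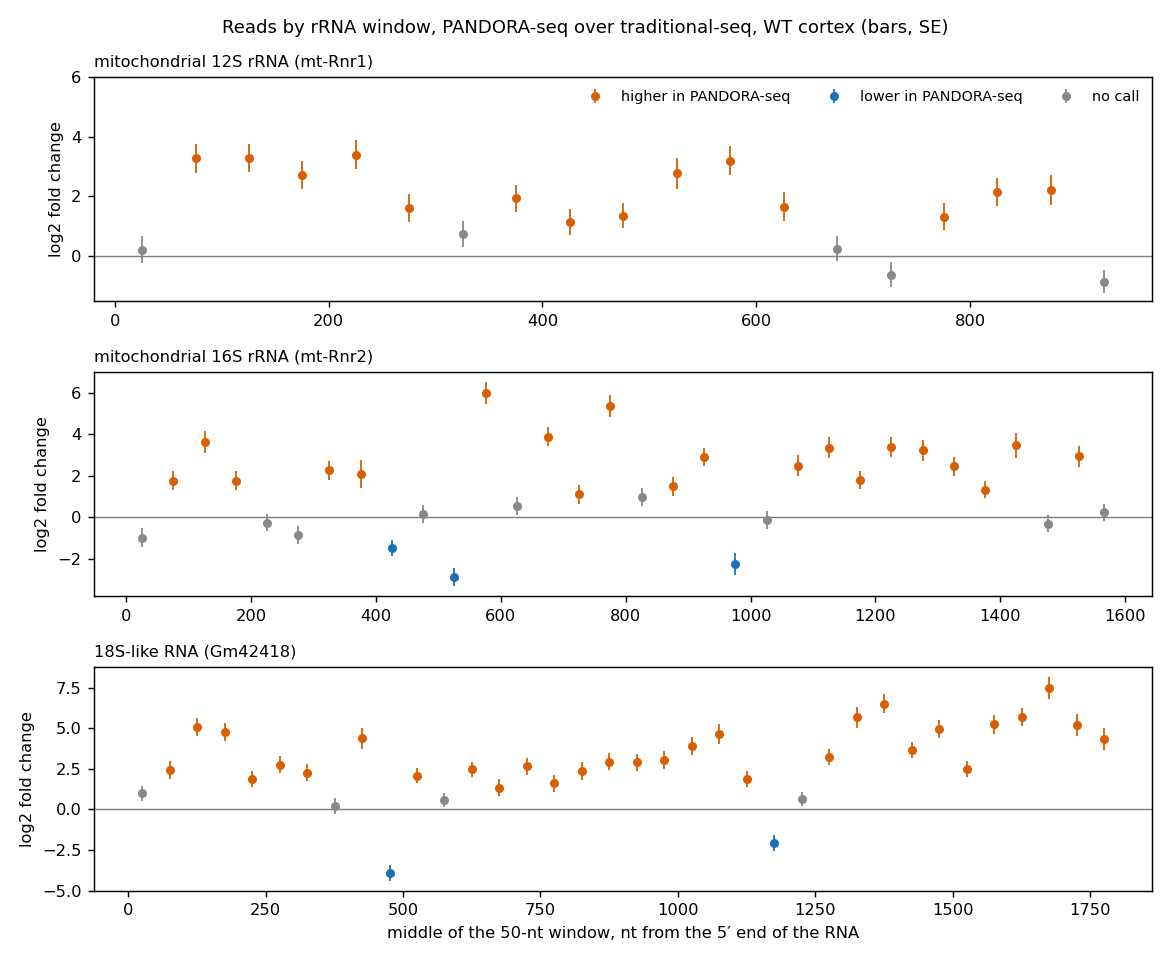
Log2 fold change (PANDORA-seq over traditional-seq, bars are SE) of reads in 50-nt windows along the mitochondrial 12S and 16S rRNA and the 18S-like RNA Gm42418, by distance from the 5′ end of the RNA. Each read counts in the window that holds its middle base. In 12S no window is called lower, in 16S 3 windows and in the 18S-like RNA 2 windows are.

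Of 32 nuclear rRNA features tested, 19 rose and 6 fell (3 with the replicate block), beside 89.8% and 3.08% over all RNAs, and under TMM 6 rose and 11 fell. Rn5s, which stands for 46 near-identical copies of 5S rRNA, had 11001 to 31775 RPM in PANDORA-seq and 163 to 1164 RPM in traditional-seq (5.03 ± 0.46, adjusted p = 4e-25), and it stayed higher under TMM (3.31). By the middle base of the read, the rise was larger toward the 3′ end. It was 3.45 ± 0.55 for the window at 1–50, 5.64 ± 0.62 at 51–100 and 6.27 ± 0.59 at 101–119. The leading PANDORA-seq reads of the windows at 51–100 and 101–119 began at bases 81 and 85 and ended in the same bases. Those windows are therefore not separate stretches of coverage. The 5S-like copies n-R5s195 (7.01 ± 0.55), n-R5s102 (6.54 ± 0.59), n-R5s115 (5.06 ± 0.52), n-R5s127 (4.20 ± 0.48) and n-R5s5 (2.82 ± 0.44) rose without overlap. n-R5s205 (-3.36 ± 0.43) and the 5.8S copy n-R5-8s1 (-1.58 ± 0.42) were lower, with overlap. These copies differ by few bases, so their single values are uncertain.

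SnoRNAs guide the chemical modification of rRNA and snRNA in the nucleolus, box C/D members the 2′-O-methylation and box H/ACA members the pseudouridylation. Of 281 tested, 198 rose, 24 fell and 59 did neither (median 2.19, against 2.26 over all RNAs), while under TMM 76 rose and 78 fell. Over all RNAs 89.8% rose and 3.08% fell. The lists that follow split under TMM as well, the box C/D members into 18 higher and 25 lower. Of 80 box C/D snoRNAs 53 rose and 7 fell (median 2.03). Of 37 box H/ACA snoRNAs 27 rose and 4 fell (median 2.28), and of 9 scaRNAs, their Cajal body relatives, 7 rose and none fell (median 1.76).

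Snord14d, a box C/D snoRNA, had at least 41.6 RPM (median 55.4) in PANDORA-seq and at most 0.496 RPM in traditional-seq (9.48 ± 0.65, adjusted p = 3.5e-45). Snord35a had 5.17 to 30.8 RPM against at most 0.281 RPM (7.12 ± 0.61), and Scarna10, which guides modification of U5 snRNA, had 26.2 to 114 RPM against 0.715 to 2.78 RPM (5.80 ± 0.51). None of these 3 overlapped. Snora7a rose by 5.51 ± 0.49, Snord90 by 3.66 ± 0.45 and Snord14c by 2.46 ± 0.42, all without overlap. The leading PANDORA-seq reads of Snord14d and Snord14c differ only in their first base. A read shared by both goes to the RNA with most reads of its own, so the single values of Snord14d and Snord14c are uncertain.

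Of the snoRNAs that fell, Gm24949, which stands for 5 copies of a U3-like RNA, had 0.083 to 0.334 RPM in PANDORA-seq and 8.71 to 66.9 RPM in traditional-seq (-7.24 ± 0.52, adjusted p = 3.1e-41), and a 21-nt read held 73.4% of the latter. That read differs from the leading traditional-seq read of Rnu3b1 only in its last base. A shorter read shared by both goes to the RNA with most reads of its own, so the value of Gm24949 is uncertain. Snora30 had 3.38 to 7.8 RPM against 14.4 to 46.9 RPM (-2.20 ± 0.41), with 96.6% of its traditional-seq reads in the 20-nt read shown above. Gm24452 had 25.5 to 81.5 RPM against 120.5 to 535 RPM (-2.59 ± 0.41). None of these overlapped. Snord85 (-1.40 ± 0.40) fell with overlap, and its leading read again lacked 1 base in PANDORA-seq. Rnu3b1, the U3 snoRNA (0.037 ± 0.39, adjusted p = 0.93), and Snord116l1, which stands for 67 copies of the imprinted Snord116 cluster (0.57 ± 0.40), passed in neither direction. Under TMM both were called lower (-2.10 and -1.41), and relative to matched reads Snord116l1 was called higher (1.45). Gm25506 (1.37 ± 0.40) and Gm26202 (1.58 ± 0.41) rose with overlap, and under TMM they were at -0.66 and -0.61.

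SnRNAs, the RNA parts of the spliceosome, rose in 19 of 24 cases (79.2%, median 3.05), beside 89.8% over all RNAs. Under TMM 10 rose and 4 fell. Rnu12, the U12 snRNA of the minor spliceosome, had 189 to 280 RPM in PANDORA-seq and 1.79 to 10.4 RPM in traditional-seq (5.45 ± 0.49, adjusted p = 2.3e-26). Rnu2-10 (U2) rose by 4.17 ± 0.45, Rnu5g (U5) by 3.10 ± 0.44 and Rnu1a1 (U1) by 2.99 ± 0.43, and Gm23444 and Gm25360, each standing for 4 U2-like copies, by 6.65 ± 0.52 and 6.55 ± 0.52. None of these overlapped. Gm24407 (1.88 ± 0.43) and Gm24924 (1.74 ± 0.43) rose with overlap. Rnu7, the U7 snRNA that processes histone mRNA, was the only one lower, with 4.55 to 7.74 RPM against 6.97 to 31.5 RPM (-1.77 ± 0.41).

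Among the other small RNAs 23 of 36 rose and 4 fell (median 1.97), beside 89.8% and 3.08% over all RNAs, and under TMM 3 rose and 12 fell. Rny1, a Y RNA that binds the Ro protein, had 12224 to 19832 RPM in PANDORA-seq and 3013 to 17164 RPM in traditional-seq and passed in neither direction (0.66 ± 0.39, adjusted p = 0.09). Rny3, the other Y RNA, had 2650 to 6670 RPM against 124 to 694 RPM without overlap (3.24 ± 0.43, adjusted p = 1.4e-12). The 2 Y RNAs thus differed on the main scale. Relative to matched reads both were called higher, and under TMM, at -1.46 and 1.22, neither was called.

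Rn7s1, the 7SL RNA of the signal recognition particle, rose by 2.77 ± 0.42 and Rn7sk, the 7SK RNA that holds back transcription elongation, by 2.85 ± 0.42. Rpph1 and Rmrp, the RNA subunits of RNase P and RNase MRP, rose by 3.65 ± 0.46 and 2.66 ± 0.44, Vaultrc5, a vault RNA, by 2.41 ± 0.43, and Gm22662, standing for 3 copies, by 3.39 ± 0.49. The groups did not overlap in these 6. Under TMM only 1 of Rpph1 and Rmrp was called higher. Gm24379 fell (-2.59 ± 0.43) without overlap, and Gm26168 did neither (0.50 ± 0.40).

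Mitochondrial mRNAs, which encode subunits of the respiratory chain, did not follow the nuclear ones. None of 13 rose, 3 fell and 10 did neither (median -0.46), and under TMM all 13 fell, while relative to matched reads 3 rose and 1 fell. mt-Atp6, a subunit of ATP synthase, had 82.9 to 221 RPM in PANDORA-seq and 399 to 3447 RPM in traditional-seq, with no overlap (-3.13 ± 0.42, adjusted p = 1.2e-12). mt-Atp8 (-1.16 ± 0.40) and mt-Co3 (-1.06 ± 0.39) fell with overlap, but neither passed without traditional-seq replicate 5 (-0.78 and -0.70) or with the replicate block (-0.95 and -0.96), which left 1 of 13 lower. The cytochrome oxidase mRNAs mt-Co1 (-0.48 ± 0.39) and mt-Co2 (-0.55 ± 0.39) and the complex I mRNAs mt-Nd3 (0.30 ± 0.40), mt-Nd6 (0.13 ± 0.40) and mt-Nd1 (0.13 ± 0.39) passed in neither direction, as did all 7 complex I mRNAs.

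Fragments of nuclear mRNAs rose almost throughout. Of 12390 tested, 11676 (94.2%) were higher and 54 (0.436%) lower (median 2.31), whereas under TMM 1214 were higher and 639 lower. Of the 12390, 527 had at least 50% of their reads in 1 window of 50 nt and may owe them to another RNA, and 447 of these rose. 79 of 82 cytosolic ribosomal protein mRNAs rose (median 2.72; 19 rose and 6 fell under TMM), and the 3 of highest level, Rpl13 (3.79 ± 0.46), Rps29 (0.79 ± 0.40, neither) and Rpl12 (4.17 ± 0.47), were such single-window genes with 91.4%, 58.4% and 71.0% of reads in 1 window.

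The mRNA lists of brain cells differed in their medians. All 20 synaptic mRNAs rose (median 2.83; 6 under TMM), with Snap25, a SNARE protein of synaptic vesicles, at 77.9 to 701 RPM in PANDORA-seq and 23 to 66.2 RPM in traditional-seq (2.82 ± 0.43). All 9 myelin mRNAs rose (median 2.16; none under TMM). All 15 tested mRNAs of glia around plaques rose (median 2.31; 1 under TMM), with Apoe at 3.18 ± 0.45. Each of these shares stands beside the 94.2% of mRNAs that rose. Astrocyte markers rose in 3 of 5 cases (median 1.08), microglia markers in 4 of 4, endothelial markers in 2 of 3 and the choroid plexus marker Ttr in 1 of 1. Under TMM none of these rose and 2 astrocyte markers fell. D10Wsu102e rose by 1.63 ± 0.41, and Hsp90aa1 passed in neither direction (0.57 ± 0.40).

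The mRNAs with the largest rises belong to other organs. Pnlip, pancreatic lipase, had 2.82 to 18.6 RPM in PANDORA-seq and no read in any traditional-seq library, which is at least 172-fold higher against a floor of 3 reads over that group. Cela2a, a pancreatic elastase, had 3.57 to 26.0 RPM against 0.337 RPM in 1 library and none in 6 (7.42 ± 0.67), and Mup20, a liver-made urinary protein, 12.6 to 59.2 RPM against at most 1.02 RPM (7.12 ± 0.59). None overlapped.

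Lists of other organs were therefore added after the values were seen, so their counts are no independent test. Pnlip and Cela2a, which prompted them, are in the pancreas list. Members near the floor in traditional-seq passed the filter through PANDORA-seq, so they could only be called higher. Each count stands beside the 94.2% of all mRNAs tested that rose on the main scale. All 14 liver mRNAs rose (median 5.81; 4.28 under TMM), and their sum was 208 to 840 RPM in PANDORA-seq and 2.11 to 37.9 RPM in traditional-seq. Alb, serum albumin, had 93.6 to 365 RPM against 0.276 to 14.4 RPM (5.83 ± 0.50), and Apoa1 rose by 4.12 ± 0.49. All 14 exocrine pancreas mRNAs rose (median 6.04; 12 of 14 called under TMM), with sums of 21.8 to 148 RPM against 0.211 to 1.11 RPM, and Prss2, a trypsinogen, was at least 79.4-fold higher. Skeletal muscle mRNAs summed to 1.27 to 6.21 RPM against 0.536 to 2.68 RPM (2 of 3 tested rose; none under TMM, with a median of -0.86), and the globin and blood markers to 40.8 to 158 RPM against 4.07 to 42.4 RPM (2 of 2 rose; 1 under TMM). The highest liver and pancreas values of PANDORA-seq were those of replicate 8, but every PANDORA-seq library was above every traditional-seq library. The liver miRNA Mir122 passed in neither direction on the main scale, was called lower under TMM (-1.72) and higher relative to matched reads (1.04), and within PANDORA-seq was highest in replicate 8 too. The cortex should hold almost no RNA of these genes, and where it came from was not tested.

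The mRNAs that fell were few. Sfrp1, a secreted Wnt inhibitor, had 0.499 to 1.41 RPM in PANDORA-seq and 3.58 to 22.5 RPM in traditional-seq (-3.12 ± 0.44), but with reads of 20 to 42 nt alone the sign turned (1.93), as it did with uniquely assigned reads (1.30). Wdr17 fell by 2.46 on the log2 scale (± 0.41) and turned with reads of 20 to 42 nt (3.67), while Ift74, a cilium transport protein, had 0.288 to 2.22 RPM against 1.19 to 21 RPM (-2.94 ± 0.43). Ift74 and Wdr17 had 49.8% and 49.4% of their reads in 1 window, just under the limit of 50%.

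A pair of mRNA genes stood out by level. Their short reads may come from other RNAs of like sequence, which was not tested, so the values are those of reads that match the gene and not levels of its mRNA. Tmem38b had 8864 to 26814 RPM in PANDORA-seq and 317 to 1140 RPM in traditional-seq (4.55 ± 0.45), with 93.7% of reads in 1 window. Lars2, the mitochondrial leucyl-tRNA synthetase, had 4799 to 14644 RPM against 327 to 7055 RPM (1.71 ± 0.40; -0.10 under TMM). Lars2 had 49.1% of its reads in 1 window, just under the limit. Hba-a1, alpha globin, rose by 3.10 ± 0.44.

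Reads of mRNAs fell on the coding sequence in 39.7% ± 8.12 of cases in PANDORA-seq and 38.8% ± 3.72 in traditional-seq (exact permutation p = 0.803), and on the 3′ UTR in 57.3% ± 8.3 and 56.2% ± 4.0 (exact permutation p = 0.753). Only the 5′ UTR differed, with 3.08% ± 0.406 against 5.03% ± 1.09 and no overlap (exact permutation p = 0.000155, adjusted p = 0.000466). Without Lars2 and Tmem38b, an alternative added after the values were seen, the coding share was higher in PANDORA-seq by 6.96 percentage points and the 3′ UTR share lower by 5.17. Among coding reads of 28 to 32 nt, 40.4% ± 1.04 of 5′ ends were in frame 0 in PANDORA-seq and 34.6% ± 0.512 in traditional-seq, without overlap (exact permutation p = 0.000155, adjusted p = 0.000466).

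LncRNAs rose in 842 of 1061 cases (79.4%) and fell in 22 (median 2.0), beside 89.8% and 3.08% over all RNAs (median 2.26). Under TMM 53 rose and 129 fell. The number of lncRNAs that passed the filter changed when a library was left out, from 1061 to 586–897 without 1 PANDORA-seq library, and with it the count of higher ones, which was 471, 472, 741, 492, 521, 508, 479 and 568 without replicates 1 to 8 in turn (80% to 85.3% of those tested, against 79.4%). Without 1 traditional-seq library 1405 to 1458 were tested and 69.7% to 78.6% of them were higher, and with no filter beyond 10 reads 2014 of 5493 (36.7%). With PANDORA-seq thinned to the traditional-seq depth 188 of 210 were higher. Gm26917 had 737 to 3933 RPM in PANDORA-seq and 18.1 to 90.9 RPM in traditional-seq (5.27 ± 0.48, adjusted p = 6.1e-26). Its reads, like those of Tmem38b and Lars2, may come from other RNAs of like sequence, which was not tested. A830036E02Rik (3.49 ± 0.48) and Cct6a (3.31 ± 0.46), which the annotation lists as a processed transcript, also rose without overlap. Of 7 nuclear lncRNAs 5 rose and 1, Mirg of the Dlk1-Dio3 locus, fell (-1.23 ± 0.41), a call that was lost relative to matched reads. Malat1, of nuclear speckles, had 316 to 1265 RPM against 32.9 to 200 RPM (2.66 ± 0.42), and the imprinted Meg3 rose with overlap (1.65 ± 0.41; -0.41 under TMM), as did 2900097C17Rik (1.86 ± 0.41; -0.27 under TMM). Gas5 (0.42 ± 0.42), Mir124a-1hg (0.35 ± 0.41) and C230004F18Rik (0.59 ± 0.40) were the lowest by the rule and passed in neither direction. Of 82 other transcripts 64 rose (78%) and 4 fell (4.88%), beside the 89.8% and 3.08% over all RNAs, while under TMM 11 rose and 15 fell. They include 6820431F20Rik (2.05 ± 0.42), 2610005L07Rik (1.62 ± 0.44), 1700086L19Rik (0.43 ± 0.42, neither) and the pseudogene Gm13340 (-3.12 ± 0.46).

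Several of the calls above depend on the scale. Of the named RNAs that passed in neither direction, 1700086L19Rik, C230004F18Rik, Gas5, Gm26168, Hsp90aa1, Mir122, Mir124a-1hg, Rps29, Snord116l1, mt-Nd1, mt-Nd3, mt-Nd6, mt-Rnr2 and mt-Tq were called lower under TMM and higher relative to matched reads. Of those that fell, Mir124a-1, Mir144, Mirlet7a-1, Mirlet7d, Mirlet7e, Mirg, Rnu7, Snord85, n-R5-8s1, mt-Atp8, mt-Co3, mt-Ts2, mt-Tt, mt-Tv and mt-Tw no longer passed relative to matched reads. Of those that rose, Malat1, Snap25, Rn7s1, Rn7sk, Rnu1a1, Rny3, Vaultrc5, Snord14c and n-R5s5 kept their sign under TMM but no longer passed.

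The protocol difference was then set beside that of the 5XFAD cortex, where 8 PANDORA-seq and 7 traditional-seq libraries were fitted in the same way. Of 13038 RNAs called in WT and tested in 5XFAD, 12313 were called in the same direction there and 1 in the other. Of all 13967 RNAs tested in both genotypes, 12572 were called in 5XFAD. In WT 89.8% of the RNAs tested were higher, so agreement in direction was the common outcome on this scale. A test of the difference itself, the interaction of protocol and genotype in edgeR, called 1 of 16247 RNAs (0.00615%), and 584 had an unadjusted p below 0.05. That RNA was the muscle hairpin Mir206, which fell in WT (-3.53) and rose in 5XFAD (1.48), a difference of 5.01 on the log2 scale. Under TMM none was called (928 at an unadjusted p below 0.05) and by the likelihood ratio test 2 (763).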

How the data were processed

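Small RNA libraries of WT mouse cortex were compared between 8 PANDORA-seq and 7 traditional-seq libraries, grouped by label. The authors deposited, per library, the raw count of reads of each distinct adapter-trimmed sequence. Their methods name SPORTS1.1 for annotation, which is not in these files, and the submitters' processing notes name the build mm39. The trimming tool is not given in the sources used here.

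Sequences of 15 to 42 nt were matched exactly, in sense, to GENCODE M21 (GRCm38) transcripts and summed per gene. Near-identical genes were merged, and a sequence in several classes went to the first of miRNA hairpin, mitochondrial tRNA, mitochondrial rRNA, nuclear rRNA, snoRNA, snRNA, other small RNA, mitochondrial mRNA, mRNA, lncRNA and other. Of 1162 hairpin features with reads, 800 matched a RefSeq mature sequence. For gene and segment counts the quasi-likelihood test of edgeR 4.0.16 (R 4.3.3) was used after filterByExpr, and p-values were adjusted by Benjamini-Hochberg, with all reads of 15 to 42 nt as library size and no TMM. Shares were tested by exact permutation over 6435 splits, two-sided. Alternatives were TMM, DESeq2 1.42.0, matched reads, other filters, lengths and windows, thinning, a replicate block and leaving out each library. The fits were tested on simulated data.

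Named RNAs are, per class, the 3 largest rises and falls among called RNAs of at least 5 RPM (or the most extreme where fewer were called) and the 3 of highest level in each protocol, for mRNA, lncRNA and other with under 50% of reads in 1 window of 50 nt. All mitochondrial tRNAs and rRNAs, list members and extreme windows were added. The members and lists were chosen with earlier results of these data known. Reads carry no molecular identifiers, so depth of 10081061 to 88155113 reads covers counting error only. The values of a few RNAs chosen by this rule are not reported here.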

Additional observations from a re-analysis of the deposited data

Results flagged for a closer look

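Of 324 tests for a library far from the others of its protocol 43 were positive, and no chance rate is given for groups this small. They are given as values, and their causes were not tested.

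PANDORA-seq replicate 8 had the highest lncRNA share (4.16%, others 2.5% to 3.25%). Of this, 3.73 points were reads of Gm42418, which holds the 18S rRNA sequence, and without that gene its lncRNA share was the lowest of PANDORA-seq (0.422%). It was also highest for the pancreas mRNAs Pnlip (18.6 RPM), Cela2a (26.0 RPM) and Prss2 (8.5 RPM), for the liver miRNA Mir122 (272 RPM), for Mir376c (0.0502 RPM) and for Gm24379 (2.61 RPM). PANDORA-seq replicate 6 was highest for Mir148a (327 RPM), Mir126a (42.9 RPM), Mir467a-1 (0.194 RPM), mt-Tl2 (65.0 RPM), mt-Ty (119 RPM), n-R5s195 (119 RPM), Gm25506 (712 RPM) and Snord85 (345 RPM). PANDORA-seq replicate 3 stood apart for mt-Tp (366 RPM), Rny3 (6670 RPM) and Rpl12 (91.3 RPM), replicate 4 for mt-Ts1 (275 RPM) and mt-Tv (365 RPM), and replicate 1 for Snord35a (30.8 RPM) and Gm13340 (0.882 RPM).

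Traditional-seq replicate 5 had the highest mitochondrial mRNA share (1.22%, others 0.255% to 0.645%). Its values were 2931 RPM for mt-Co1, 1583 RPM for mt-Co2, 1343 RPM for mt-Co3, 366 RPM for mt-Nd1, 176 RPM for mt-Nd3, 6.66 RPM for Gm13340 and 16.5 RPM for Hba-a1. Traditional-seq replicate 4 was highest for Alb (14.4 RPM), Apoa1 (2.31 RPM), Mup20 (1.02 RPM), Sfrp1 (22.5 RPM) and Mir1249 (0.0924 RPM). Traditional-seq replicate 1 had 36.1% of miRNA reads 1 base longer than annotated (others 15.1% to 20.2%) and 227367 RPM of Mir128-1. Traditional-seq replicate 2 stood apart for mt-Ts1 (1634 RPM) and Snord14d (0.496 RPM), replicate 3 for mt-Ty (2894 RPM) and Wdr17 (98.4 RPM), and replicate 7 for Mir1a-1 (3253 RPM) and Cela2a (0.337 RPM).

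The protocol difference of Mir206 itself differed between WT and 5XFAD by 5.01 on the log2 scale in the edgeR interaction test. Reads of 43 to 45 nt, which the traditional-seq files do not hold and no comparison used, made up 11.2% to 21.5% of WT PANDORA-seq reads.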

How the results depend on the processing

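Scaling changed most. Against 12908 RNAs higher and 442 lower, TMM gave 1390 and 1272, DESeq2 size factors 1103 and 1404, and DESeq2, which also uses another test and filter, 1271 and 3348. The scalings centre the median RNA. Without the expression filter 872 were lower. Under TMM, DESeq2 size factors and DESeq2, in that order, the log2 fold changes that turned were 1700086L19Rik -1.91, -2.02 and -2.02, 2610005L07Rik -0.48, -0.57 and -0.58, 2900097C17Rik -0.27, -0.37 and -0.37, 6820431F20Rik -0.14, -0.24 and -0.23, C230004F18Rik -1.66, -1.76 and -1.76, D10Wsu102e -0.43, -0.52 and -0.51, Gas5 -1.68, -1.78 and -1.77, Gm24407 -0.11, -0.20 and -0.20, Gm25506 -0.66, -0.76 and -0.75, Gm26168 -1.63, -1.73 and -1.73. In the same order they were Gm26202 -0.61, -0.72 and -0.71, Hsp90aa1 -1.69, -1.81 and -1.80, Lars2 -0.10, -0.18 and -0.18, Meg3 -0.41, -0.50 and -0.49, Mir124a-1hg -1.73, -1.83 and -1.83, Mir486 -0.97, -1.06 and -1.05, Rnu3b1 -2.10, -2.20 and -2.20, Rny1 -1.46, -1.55 and -1.55, Rps29 -1.46, -1.57 and -1.56, Snord116l1 -1.41, -1.49 and -1.49. In the same order they were mt-Nd1 -1.72, -1.80 and -1.79, mt-Nd3 -1.51, -1.59 and -1.59, mt-Nd6 -1.55, -1.62 and -1.62, mt-Rnr1 -0.13, -0.21 and -0.21, mt-Rnr2 -1.36, -1.44 and -1.43, mt-Tk -0.52, -0.61 and -0.61, mt-Tl1 -0.66, -0.74 and -0.74, mt-Tq -1.31, -1.39 and -1.38.
Gm24924 was at -0.043 and -0.065 under DESeq2 size factors and DESeq2, and Gm42418 at -2.7e-05 under the former. Under TMM on segments, Gm42418 bases 351–400 were at -0.64, mt-Rnr1 bases 1–50 at -0.93, the mt-Tg 3′ part at -0.74, the mt-Tm middle part at -0.91 and the mt-Tn 5′ part at -0.25. With matched reads as the library size Mir122 (1.04), Mirlet7c-2 (0.038), mt-Co1 (0.41), mt-Co2 (0.33), mt-Te (0.17), mt-Tg (0.079), mt-Tm (0.36) and mt-Tn (0.14) turned positive. With reads of 20 to 42 nt Sfrp1 (1.93), Wdr17 (3.67), mt-Te (0.23), mt-Tn (0.53) and mt-Tt (0.34) turned, and with uniquely assigned reads Sfrp1 (1.30). With CCA added to mitochondrial tRNAs mt-Te (1.09), mt-Tg (0.069) and mt-Tm (0.69) turned. For these settings, other than the centring named above, the cause was not tested.

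The 7 same-numbered WT libraries share a file code as well, and whether it marks 1 mouse is not given in the sources used here. Their deviations correlated at -0.201 to 0.267, over 0.1 in 4 of 7 pairs (median of other pairs -0.0138), so the condition that every pair be over 0.1 was not met, and 2 of 7 traditional-seq libraries correlated best with their own number. A fit with the replicate block gave 12888 higher and 408 lower, and it turned the mt-Tg 3′ part (-0.076) and the mt-Th 3′ part (0.28). Under sign flips of the 7 pairs the replicate block left mitochondrial rRNA (0.236 percentage points) and mitochondrial mRNA (-0.246) past the threshold no longer.

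Mitochondrial tRNA shares lost the call over matched reads (-3.15 points) and with reads of 20 to 42 nt (-1.05), and mitochondrial mRNA over matched reads (0.000985) and with those reads (-0.186). Coding shares of mRNA reads rose by 7.69 points in genes with under 50% of reads in 1 window and by 6.96 without Lars2 and Tmem38b, where the 3′ UTR changed by -6.09 and -5.17, and by -0.112 with reads of 20 to 42 nt. Windows of 25 nt gave 169 higher segments. The interaction called 0 RNAs under TMM and 2 by likelihood ratio test. Read minimums moved the tRNA counts: CCA was lower in 17 tRNAs at 20 reads, 4 at 200 reads and 6 with reads of 20 to 42 nt, CC higher in 12, 3 and 3, single C higher in 4 at 200 reads and 5 with reads of 20 to 42 nt, no added base higher in 7 and 2 and lower in 5 and 1 at 20 and 200 reads, and another base at base 9 lower in 3 at 200 reads. CC in mt-Th was at -1.14 points with reads of 20 to 42 nt.

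Leaving out 1 library at a time gave these ranges where a direction or call changed: Mir122 -0.38 to 0.45, Rnu3b1 -0.14 to 0.14, mt-Nd1 -0.016 to 0.44, mt-Rnr1 bases 1–50 -0.017 to 0.54, mt-Tg 3′ part -0.16 to 0.26, mt-Th 3′ part -0.54 to 0.085, mt-Tm middle part -0.028 to 0.34 and mt-Ts1 3′ part -0.27 to 0.069 (log2), none of which was called. In percentage points they were mitochondrial rRNA 0.157 to 0.267, mitochondrial mRNA -0.279 to -0.119 (lowest in size without traditional-seq replicate 5), mt-Tq another base at base 9 -0.743 to 0.0719, mt-Tm CC -4.78 to 3.97, mt-Tg no added base -1.94 to 1.35, mt-Ty no added base -0.0623 to 0.208, coding -0.337 to 2.79 and 3′ UTR -0.876 to 2.44. The tRNAs with another base at base 9 more often numbered 1 to 2. Without traditional-seq replicate 5 only 1 mitochondrial mRNA was lower. Depth limits the traditional-seq side, where the libraries hold fewer reads.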
